A study of Mus musculus with 6 samples.

Results

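Mitochondrial chaperones and proteases were followed through 9 genes: Hspd1, Hspe1, Hspa9, Trap1, Grpel1, Grpel2, Lonp1, Clpp and Clpx. They were found by symbol among the 45101 probe sets of the array, where 18 probe sets carried exactly 1 of these symbols. All 9 genes passed the filter on low signal and were among the 12918 genes tested. The brightest probe set gave the value of a gene and the others served as a check. The cells were primary fibroblasts, the collagen-making cells of connective tissue, cultured from mouse embryos of the ICR strain at embryonic day 15.5. They were measured as HS+LPS (1 h at 42 °C, then lipopolysaccharide, LPS, for 4 h), as LPS (LPS at 1 μg/ml for 4 h with no heat shock) and as Control (kept at 37 °C with no LPS). Each group held the same 2 cultures, each from its own embryo, so there were 6 arrays. No group had heat shock alone, so the difference between HS+LPS and LPS holds both the heat and its interplay with LPS.

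Most mitochondrial proteins are made in the cytosol and threaded into the matrix unfolded. Hspa9 (mortalin), the matrix Hsp70, pulls them in and holds them, and the Grpel proteins, relatives of bacterial GrpE, exchange its nucleotide. The chaperonin of Hspd1 (Hsp60) rings and Hspe1 (Hsp10) lids then folds many of them, and Trap1 is the Hsp90 of mitochondria. Lonp1 and the ClpXP protease, made of the peptidase Clpp and the unfoldase Clpx, degrade damaged or surplus matrix proteins. Heat shock factors, which drive the cytosolic heat shock genes, bind heat shock elements, alternating repeats of GAA and its reverse complement TTC. Unfolded protein in mitochondria can also raise chaperone genes through C/EBP-type factors and Ddit3 (CHOP), a response described in mammalian cells.

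Hspd1 and Hspe1 lie head to head on chromosome 1 and share their start region, and Clpx on chromosome 9 is shown beside it as the gene with the largest decrease. Both sequences are the 250 bases before a start site in RefSeq's table (GRCm38.p6, plus strand), chr1:55087898-55088147 for Hspe1 and chr9:65294010-65294259 for Clpx. Capitals mark an unbroken run of heat shock units.
Hspe1: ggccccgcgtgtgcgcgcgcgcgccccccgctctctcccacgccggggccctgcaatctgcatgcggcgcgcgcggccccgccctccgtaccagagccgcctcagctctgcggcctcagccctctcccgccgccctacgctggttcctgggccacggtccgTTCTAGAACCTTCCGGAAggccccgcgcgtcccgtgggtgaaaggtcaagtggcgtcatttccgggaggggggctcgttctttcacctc
Clpx: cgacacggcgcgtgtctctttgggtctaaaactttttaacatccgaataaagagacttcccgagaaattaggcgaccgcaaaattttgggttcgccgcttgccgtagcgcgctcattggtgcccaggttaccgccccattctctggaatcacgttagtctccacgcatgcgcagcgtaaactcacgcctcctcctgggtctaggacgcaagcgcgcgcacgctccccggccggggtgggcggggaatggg
Hspd1 occupies positions 55077833 to 55088243 on the minus strand of chromosome 1, and Hspe1 positions 55088148 to 55091317 on the plus strand. The downstream of the 2 Hspd1 start sites lies 216 bases from that of Hspe1, and the windows around these 2 sites share 285 of their 300 bases. The capital run of 18 bases begins 89 bases before the Hspe1 start and holds 4 alternating units. On both strands, TTCNNGAANNTTC, with its reverse complement GAANNTTCNNGAA, occurred in 0.603% of 32851 RefSeq promoter windows of 300 bases (250 before and 50 after the start). Of the 7 genes whose windows were examined, only Hspd1 and Hspe1 held it, in the same run, and Hspd1 only in the window of its downstream start at 55087932. No window was examined for Hspa9 and Grpel2, so nothing is said of theirs. The window of the other Hspd1 start, at 55088243, shares 4 bases with the Hspe1 window and held none of the motifs searched here. The shorter forms TTCNNGAA and GAANNTTC, which the longer motif contains, occurred in 8.52% and 7.86% of all windows. Among the 7 genes, TTCNNGAA was also found in Clpp, 33 bases after its start. The core of the CHOP element, TGCAAT or its reverse complement ATTGCA, was present in 8.4% of windows and, among the 7, in the shared window, 199 bases before the Hspe1 start. No tested letters were found in the windows of Trap1, Grpel1, Lonp1 and Clpx. These matches are descriptions of sequence, and binding was not measured.

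The arrays gave scaled linear intensities with medians of 11.9 to 14.4 and highest signals of 6931 to 8434. Hspa1a, the inducible cytosolic Hsp70, read 5029 and 4940 in HS+LPS, 56.8 and 68.1 in LPS, and 61 and 54.8 in Control. The LPS-induced chemokine Cxcl10 averaged 41.1 ± 7.84 in HS+LPS, 510 ± 115 in LPS and 9.54 ± 2.39 in Control (SD, n = 2 each). All 12 fibroblast markers were above the noise level (the brightest of 27 probe sets for Bacillus genes, 6 to 7.67) on every array, and their summed signal was 31206 to 39176 in HS+LPS, 31277 to 37371 in LPS and 29361 to 42464 in Control. At or under noise on all arrays were Itgam (macrophage), Pecam1 and Tie1 (endothelium), Cdh1 (epithelium), Myf5 and Mymk (skeletal muscle) and Snap25 (neurons). Above noise on all arrays were 5 of 8 macrophage, 3 of 7 endothelial, 2 of 7 epithelial and 3 of 7 skeletal muscle markers. So were 4 of the 6 neural and glial markers on the array. Among them Stmn2, at 948 to 1577, made up most of the neural and glial sum below. Summed epithelial markers were 102 to 141 in HS+LPS, 54.9 to 105 in LPS and 56.7 to 71 in Control, and skeletal muscle markers 374 to 450, 260 to 313 and 300.5 to 359. Macrophage markers were 230 to 343 in HS+LPS, 218 to 415 in LPS and 240 to 442 in Control, endothelial markers 74.6 to 110, 43.6 to 98.3 and 70.1 to 78, and neural and glial markers 1159 to 1691, 1049 to 1525 and 1104 to 1565. The fibroblast receptor Pdgfrb fell to 897 ± 19.7 in HS+LPS, against 1578 ± 42.3 in LPS (SD, n = 2 each, limma adjusted p = 0.0277, and 0.000212 with the block). Pdgfra, another fibroblast receptor, read 117 and 573 in HS+LPS, against 198 and 1309 in LPS, with overlapping groups, and was lower with heat in both cultures (adjusted p = 0.74, and 0.00729 with the block). Pdgfrb and Pdgfra were 16.7% of the fibroblast markers, against 12.6% of all genes called lower with the block. Acta1 (skeletal muscle) and Krt18 (epithelium) rose with the block (limma adjusted p = 0.00879 and 0.0464, and 0.379 and 0.281 without it). They were 1 of 3 muscle and 1 of 5 epithelial markers tested (33.3% and 20%, against 6.32% of all genes). Krt18 was dim, at 18.4 and 51.4 in HS+LPS and 8.44 and 14.6 in LPS. Differences were above 0 in 2 of the 3 and 4 of the 5. Ckm and Krt5 were below 0 (log2 -0.11 and -1.03) and did not pass. Some fibroblast markers differed widely between cultures 1 and 2 in HS+LPS, as Lum (138 and 1578) and Dcn (343 and 1653). Others, as Col1a2 (5462 and 5567), differed little. The part of any of these cells in the results below was not tested. Fewer cells of a type and less RNA per cell cannot be told apart in such bulk samples.

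HS+LPS against LPS asks what a preceding heat shock did to these genes in stimulated cells. With the culture as a block, the chaperonin genes Hspd1 and Hspe1 rose about equally, by 1.67-fold and 1.65-fold, and the nucleotide exchange factor Grpel1 rose by 1.23-fold. Grpel2 and Clpx fell, being 1.51-fold and 1.73-fold lower. Hspa9, Trap1, Lonp1 and Clpp did not pass. Without the block, 0 of the 9 genes passed limma's test (Benjamini-Hochberg adjusted p under 0.05), against 1.34% of all genes, and 4 had an unadjusted p under 0.05, against 16.8%. With the block 3 rose, against 6.32% of all genes, and 2 fell, against 12.6%. In 3 genes both HS+LPS arrays were above both LPS arrays (17.9% of all genes) and in 2 both were below (28.8%). The fit without the block was set as the main one, with the block as an alternative. It counts lasting differences between the cultures as error. Because the same-numbered arrays come from the same embryo, both fits are given for most results, and the cultures are the only replicates.

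**Figure D1:**
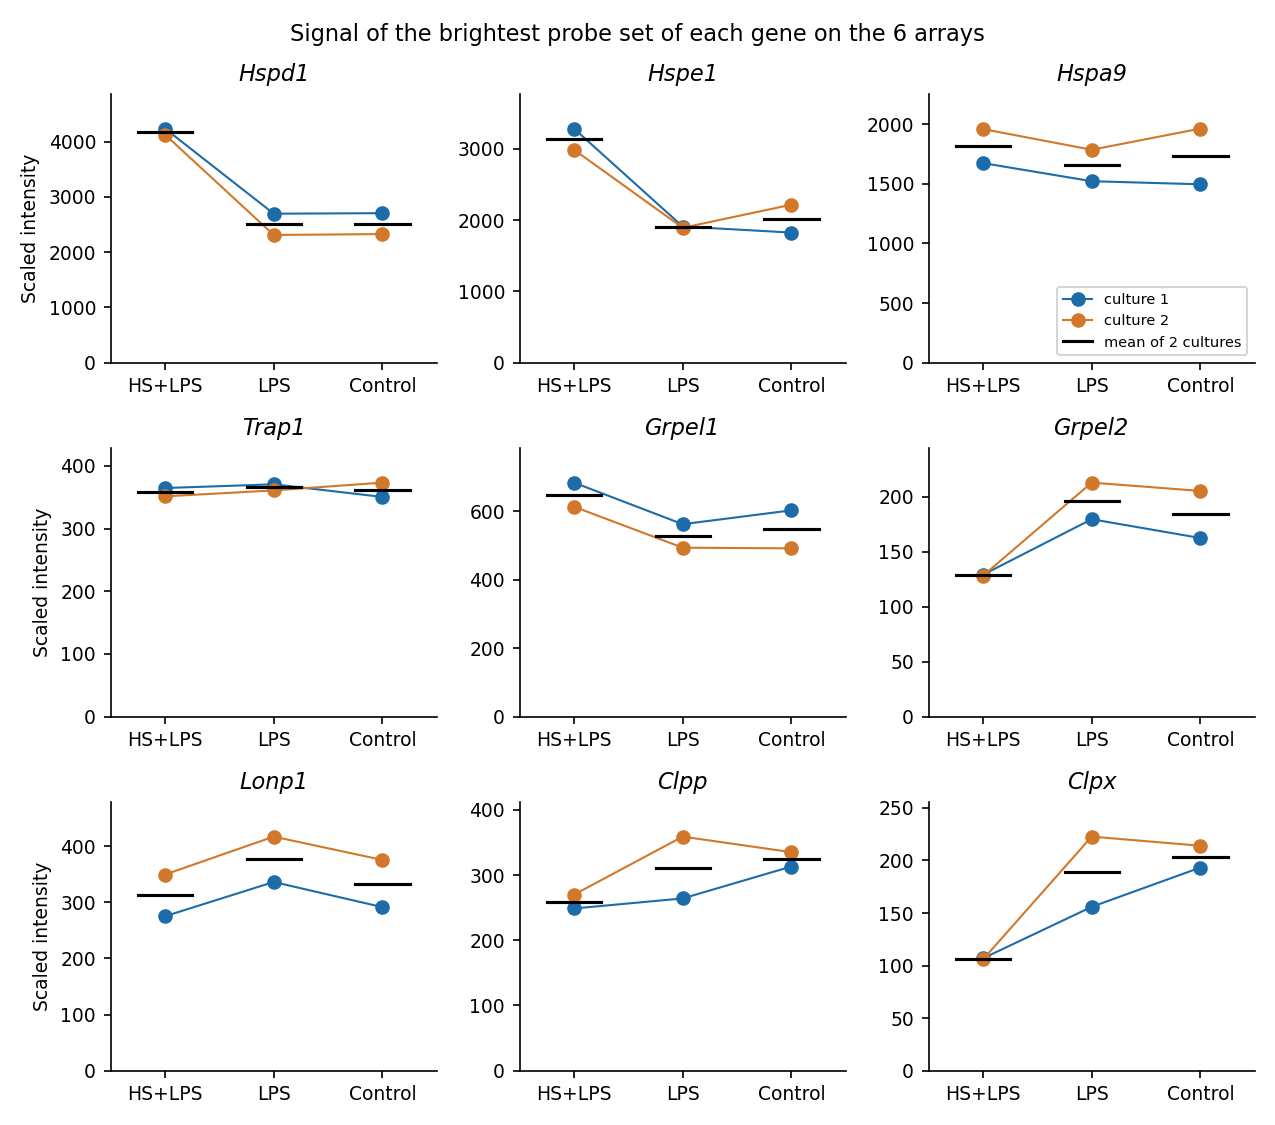
Scaled intensity (linear, from 0) of the brightest probe set of each gene, with 1 point per array, lines joining the arrays of a culture and black bars at the group means (n = 2). Hspd1, Hspe1 and Grpel1 stood highest in HS+LPS in both cultures, and Grpel2, Lonp1, Clpp and Clpx lowest. Trap1 stayed between 351 and 373 on all 6 arrays.

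Hspd1, the Hsp60 subunit, read 4235 and 4127 in HS+LPS (cultures 1 and 2), against 2696 and 2310 in LPS. The groups did not overlap, and the LPS arrays stood close to the Control arrays. The log2 difference was 0.74 (SE 0.12, limma adjusted p = 0.0576, and 0.000383 with the block). It was 0.65 in culture 1 and 0.84 in culture 2. With the block Hspd1 passed in all 11 fits tried, which included leaving out each array in turn. RefSeq's table lists 23 pseudogenes named after Hspd1 and 7 after Hspe1, and their part in these signals cannot be told apart.

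Hspe1, the Hsp10 lid, read 3282 and 2986 in HS+LPS, against 1909 and 1891 in LPS. Both HS+LPS arrays were above both LPS arrays. The log2 difference was 0.72 (SE 0.13, limma adjusted p = 0.0632, and 0.00186 with the block), 0.78 in culture 1 and 0.66 in culture 2. This probe set is of a type that can detect related transcripts. The second, more specific Hspe1 probe set read 1033 and 1392 in HS+LPS, against 633 and 877 in LPS, a log2 difference of 0.70 in culture 1 and 0.66 in culture 2. Both probe sets of Hspe1 therefore moved by similar amounts in each culture. Hspe1 too passed in all 11 fits with the block.

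Hspa9, the matrix Hsp70 that works upstream of the chaperonin, differed little. It read 1673 and 1958 in HS+LPS, against 1521 and 1784 in LPS. Culture 2 was above culture 1 in every group, so the groups overlapped although each culture was slightly higher with heat. The log2 difference was 0.14 (95% interval -0.29 to 0.56, limma adjusted p = 0.76). With the block the interval was -0.03 to 0.31 (adjusted p = 0.24). Of its 5 probe sets, 3 were higher in HS+LPS in both cultures, with differences of 0.13 to 0.24, and 2 went opposite ways in the 2 cultures. The differences of 0.24 came from a dim probe set near noise, at 16.4 and 11.7 in HS+LPS and 13.4 and 9.43 in LPS.

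The paralogous exchange factors of Hspa9 moved in opposite directions. Grpel1 read 684 and 614 in HS+LPS, against 563 and 494 in LPS, without overlap. Its log2 difference was 0.30 (SE 0.15, limma adjusted p = 0.396, and 0.0342 with the block), 0.28 in culture 1 and 0.31 in culture 2. Grpel2 read 129 and 128 in HS+LPS, against 180 and 213 in LPS. The HS+LPS arrays were nearly equal and below both LPS arrays. Its log2 difference was -0.59 (SE 0.17, limma adjusted p = 0.18, and 0.0111 with the block), -0.47 in culture 1 and -0.72 in culture 2. The difference between the paralogs' responses was not itself tested.

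Both calls were less stable than those of the chaperonin genes. With the block, Grpel1 did not pass without LPS 1 (adjusted p = 0.17), LPS 2 (0.158) or HS+LPS 2 (0.131), nor with median centring (0.0863). Grpel2 did not pass without LPS 2 (adjusted p = 0.102). Its second probe set was dim, at 20.4 and 25.4 in HS+LPS and 27.1 and 23.5 in LPS, and overlapped between groups. With the mean of both probe sets the log2 difference of Grpel2 was -0.36 (adjusted p = 0.0982 with the block).

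Trap1, the mitochondrial Hsp90, read 365 and 352 in HS+LPS, against 371 and 361 in LPS, with overlapping groups. The log2 difference was -0.03, with a 95% interval of -0.31 to 0.25 (limma adjusted p = 0.935), and -0.23 to 0.17 with the block (adjusted p = 0.843). Its second probe set differed by 0.05 and 0.10 in the 2 cultures. The intervals leave room for a change of about 1.2-fold either way.

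**Figure D2:**
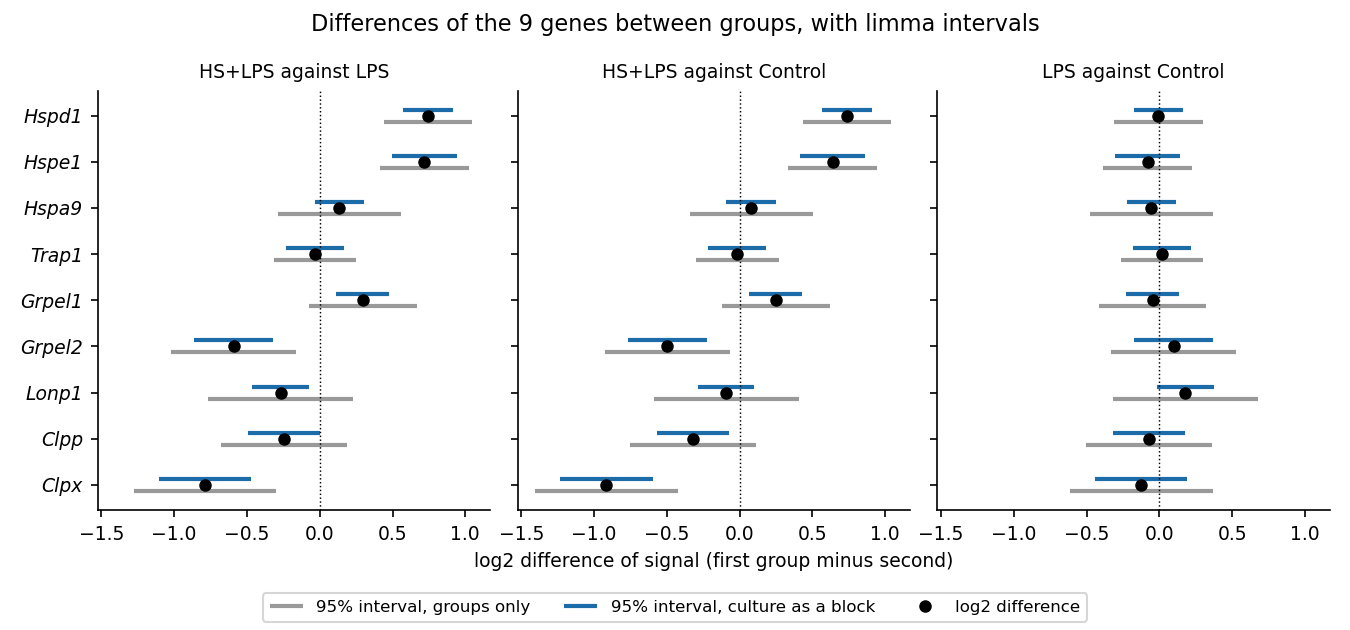
Log2 difference of signal for each gene in the 3 comparisons (points) with 95% limma intervals from the fit of the groups alone (grey) and with the culture as a block (blue). Hspd1 and Hspe1 lie above 0 and Grpel2 and Clpx below 0 in both comparisons that involve HS+LPS, and in LPS against Control every interval includes 0.

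Among the proteases, Clpx, the ATPase that unfolds substrates for Clpp, had the largest decrease. It read 107 and 106 in HS+LPS, against 156 and 223 in LPS. The heat-treated cultures were nearly equal and lay below both LPS arrays, which differed from each other. The log2 difference was -0.79 (SE 0.20, limma adjusted p = 0.132, and 0.006 with the block), -0.53 in culture 1 and -1.05 in culture 2. With the block Clpx did not pass without LPS 2 (adjusted p = 0.076). Its second probe set, at 13.2 and 9.67 in HS+LPS and 19.3 and 7.61 in LPS, was near noise, and with the mean of both the log2 difference was -0.45 (adjusted p = 0.12 with the block).

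Clpp, the peptidase of the same protease, read 248.7 and 269.9 in HS+LPS, against 264 and 359 in LPS. The groups overlapped, and the LPS array of culture 2 stood apart. The log2 difference was -0.25 (95% interval -0.68 to 0.19, limma adjusted p = 0.55, and 0.15 with the block). Its second probe set gave -0.08 in culture 1 and -0.35 in culture 2, close to the -0.09 and -0.41 of the brightest. Lonp1, the other large matrix protease, read 275 and 350 in HS+LPS, against 336 and 417 in LPS. It was lower with heat by similar amounts in both cultures, -0.29 and -0.25 on the log2 scale, while culture 2 was above culture 1 in every group. It did not pass without the block (limma adjusted p = 0.569) or with it (0.0587).

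**Figure D3:**
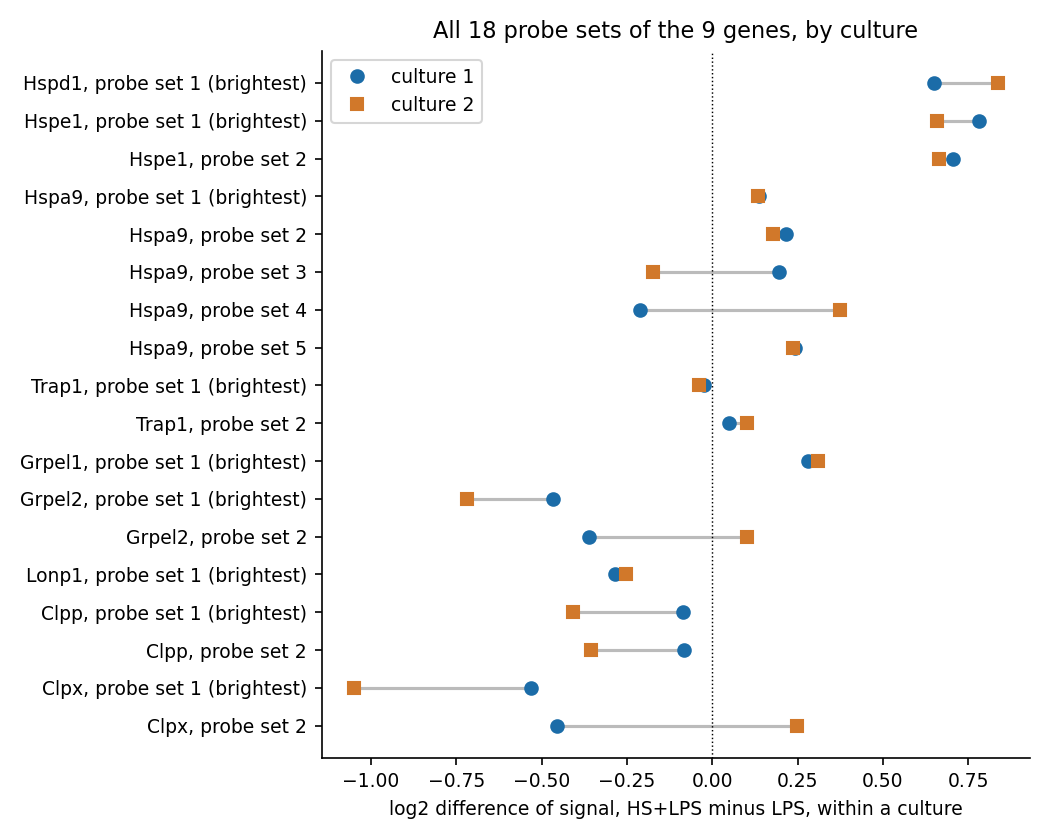
Log2 difference between HS+LPS and LPS within culture 1 (circles) and culture 2 (squares) for all 18 probe sets, ordered by brightness within a gene. The 3 probe sets of Hspd1 and Hspe1 lie between 0.65 and 0.84 in both cultures, and the dim second probe sets of Grpel2 and Clpx lie on opposite sides of 0 in the 2 cultures.

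HS+LPS against Control sets the heat-treated, stimulated cells beside untouched ones and uses the same HS+LPS arrays. With the block, Hspd1 rose 1.67-fold and Hspe1 1.56-fold, and Grpel2 and Clpx fell, being 1.41-fold and 1.88-fold lower. Without the block 0 of 9 passed limma's test (0.178% of all genes did), and 4 had an unadjusted p under 0.05 (16.2%). With it 2 rose (5.09%) and 2 fell (12.1%). In 3 genes both HS+LPS arrays were above both Control arrays (14.3% of all genes) and in 3 below (31.1%).

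Hspd1 read 4235 and 4127 in HS+LPS, against 2705 and 2327 in Control (log2 difference 0.74, SE 0.12, limma adjusted p = 0.0816, and 0.000692 with the block). Hspe1 read 3282 and 2986 in HS+LPS, against 1824 and 2215 in Control (0.64, SE 0.13, adjusted p = 0.106, and 0.00389 with the block). For the brightest probe set of Hspe1 the culture values differed more here, 0.85 and 0.43, and its Control arrays differed more than its LPS arrays. The second Hspe1 probe set gave 0.52 and 0.56, with 717 and 942 in Control and 633 and 877 in LPS. Clpx read 107 and 106 in HS+LPS, against 193 and 214 in Control (-0.91, SE 0.20, adjusted p = 0.121, and 0.00378 with the block). Its culture values were -0.83 and -0.99, and its call held in all 6 blocked fits that left out an array. With the mean of its 2 probe sets the log2 difference was -0.21 (adjusted p = 0.48 with the block), the dim probe set being listed at 2.97 in Control of culture 2, under noise.

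Grpel2 read 129 and 128 in HS+LPS, against 162 and 205 in Control (-0.50, SE 0.17, limma adjusted p = 0.246, and 0.0244 with the block). This call was lost in blocked fits without Control 1 (adjusted p = 0.0721), Control 2 (0.283) or HS+LPS 2 (0.109), with quantile normalization (0.0666) and with the mean of the probe sets (0.129). Grpel1 averaged 649 ± 49.8 in HS+LPS and 548 ± 78.6 in Control (SD, n = 2 each), above in both cultures, and did not pass (adjusted p = 0.495, and 0.0659 with the block). Clpp averaged 259 ± 15 in HS+LPS and 324 ± 15.5 in Control, without overlap, and did not pass (0.45, and 0.0806 with the block), although it did in the blocked fit without HS+LPS 1 (adjusted p = 0.0307). For Hspa9, Trap1 and Lonp1 the log2 differences were 0.08, -0.01 and -0.09, with adjusted p of 0.515 to 0.935 with the block. The direction of Hspa9 turned with quantile normalization and with the mean of the probe sets, and that of Trap1 with the mean of the probe sets.

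LPS against Control asks what the bacterial stimulus alone did to the 9 genes. All 9 had overlapping groups, with folds of 0.918 to 1.13. In limma's fit 0 passed, 0 had an unadjusted p under 0.05 and 0 passed with the block, where the adjusted p ran from 0.371 to 0.977. Of all genes 0.147% passed, 4.87% had such a p, 2.06% rose and 0.72% fell with the block, and 13.1% and 18.3% had LPS arrays wholly above or below Control. Hspd1 read 2696 and 2310 in LPS, against 2705 and 2327 in Control, a log2 difference of -0.01 with a 95% interval of -0.31 to 0.30. Hspd1 was thus nearly equal within each culture, with differences of -0.005 and -0.0102. Lonp1 had the largest difference, 0.18 (95% interval -0.32 to 0.67, and -0.02 to 0.37 with the block). It read 336 and 417 in LPS, against 292 and 376 in Control, and was higher with LPS in both cultures. Clpx read 156 and 223 in LPS, against 193 and 214 in Control, lower in culture 1 and slightly higher in culture 2.

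The difference between the 2 cultures was unequal across the 9 genes, which was not tested. Averaged over the 3 groups, culture 2 differed from culture 1 by 0.34 (log2) in Lonp1, 0.28 in Hspa9, 0.22 in Clpp and 0.21 in Clpx, by -0.21 in Grpel1 and -0.16 in Hspd1, and by less than 0.001 in Trap1. For Hspa9 and Lonp1 the block lowered the SE of a difference to 0.07 and 0.09, against 0.17 and 0.20 without it. For Hspe1 it changed less, to 0.10 against 0.13.

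Across the 6 arrays the 9 genes fell on both sides of Hspd1. Its Pearson correlation of log2 signal was 0.89 with Hspe1, 0.88 with Grpel1, -0.97 with Grpel2 and -0.97 with Clpx, and that of Grpel2 with Clpx was 0.93. The 6 points share 3 groups, 2 embryos and a common scaling, so these values mostly restate the contrast of HS+LPS with the rest. Hspe1 ranked 377 among all genes by its correlation with Hspd1. The 5 genes most like Hspd1 were Nudc, Ddx6, Chordc1, Hspa8 and Hsp90aa1, each at 0.995 over 6 arrays, and 148 genes reached 0.95 or more. Chordc1, Hspa8 and Hsp90aa1, an Hsp90 cochaperone and cytosolic chaperones, are themselves members of the heat shock list below.

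Other genes of mitochondrial folding and quality control were read from lists drawn up for this comparison. Of 21 tested further mitochondrial chaperones and proteases, 0 passed limma's test in HS+LPS against LPS, against 1.34% of all genes. An unadjusted p under 0.05 was found for 3. With the block 0 rose and 3 fell (14.3% of the list, against 12.6% of all genes), and the median log2 difference was 0.04, against -0.05 over all genes. Its share with an unadjusted p under 0.05 was 14.3%, against 16.8% of all genes. Dnaja3, the Hsp40 partner of Hspa9, read 85.4 and 98.6 in HS+LPS, against 164 and 186 in LPS (log2 difference -0.91, SE 0.17, adjusted p = 0.08, and 0.00105 with the block). Lactb, a mitochondrial serine protease-like protein, averaged 103 ± 4.03 in HS+LPS and 179 ± 14.2 in LPS (-0.78, adjusted p = 0.0826, and 0.00387 with the block). Htra2, a protease of the intermembrane space, averaged 139 ± 26.9 and 208 ± 20.3 in the same groups (-0.58, adjusted p = 0.205, and 0.00826 with the block). These 3 genes and Oma1, an inner membrane protease, also fell in HS+LPS against Control with the block (19% of the list, against 12.1% of all genes).

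Of 25 import genes (translocases of the outer and inner membranes and their partners), 0 passed limma's test, against 1.34% of all genes. An unadjusted p under 0.05 was found for 1 (4% of the list, against 16.8% of all genes). Once the culture was blocked 0 fell (against 12.6% of all genes) and 2 rose (8% of the list, against 6.32% of all genes), at a list median of 0.13. These were Timm8a1, a small chaperone of the intermembrane space (449 ± 72.4 in HS+LPS, 358 ± 65.3 in LPS, log2 difference 0.33, adjusted p = 0.44, and 0.043 with the block), and Tomm7, a subunit of the outer membrane translocase (0.32, adjusted p = 0.306, and 0.0365 with the block). Of 31 genes of the respiratory chain, the citrate cycle and carriers, 0 passed limma's test, 2 had an unadjusted p under 0.05, and with the block 2 rose, Cox7a2 and Atp5c1, subunits of cytochrome oxidase and ATP synthase, by 1.20-fold and 1.22-fold (adjusted p = 0.237 and 0.284, and 0.0339 and 0.0222 with the block). These are 6.45% of the list, against 6.32% of all genes, and with the block 0 of the list fell, against 12.6% of all genes. The 2 with an unadjusted p under 0.05 were also 6.45% of the list, against 16.8% of all genes. The list's median of 0.15 shrank to 0.04 with quantile normalization. Against Control its median was 0.03, and -0.06 with quantile normalization.

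Of 18 transcription and biogenesis factors, Chac1, a stress-induced enzyme that degrades glutathione and a target of Atf4, passed limma's test. That is 5.56% of the list, against 1.34% of all genes. Chac1 read 426 and 401 in HS+LPS, against 204 and 148 in LPS (2.35-fold, adjusted p = 0.0431, and 0.000423 with the block). In the blocked fit 1 of the 18 was called higher (5.56%, against 6.32% of all genes) and 4 lower (22.2%, against 12.6%), at a list median of -0.06. Polrmt, the mitochondrial RNA polymerase, read 112 and 69.2 in HS+LPS, against 229 and 236 in LPS (log2 difference -1.37, adjusted p = 0.0624, and 0.000906 with the block). Ddit3, the CHOP factor of the mitochondrial stress response, read 301 and 203 in HS+LPS, against 475 and 453 in LPS (-0.90, adjusted p = 0.131, and 0.0102 with the block). Atf4, the stress factor upstream of it, also fell with the block (-0.35, adjusted p = 0.504, and 0.0422 with the block). The fourth gene called lower, Ppargc1a, a coactivator of mitochondrial biogenesis, was under noise in HS+LPS (2.07 and 2.29) and at 11 and 14.4 in LPS. Its call supports nothing, since its mean signal passed the filter only through the groups where it was higher. Cebpb, a C/EBP factor, did not pass in HS+LPS against LPS (1.16-fold, limma adjusted p = 0.715, and 0.201 with the block). With the block Cebpb rose against Control, 1.88-fold in HS+LPS (adjusted p = 0.0013) and 1.62-fold in LPS (0.0102). Without it the adjusted p were 0.152 and 0.846. The block called 3 of the 18 higher in HS+LPS against Control (16.7%, against 5.09% of all genes) and 5 lower (27.8%, against 12.1%). In LPS against Control 1 rose (5.56%, against 2.06%).

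Of 20 cytosolic heat shock chaperones and cochaperones, 8 rose and 12 did not pass limma's test in HS+LPS against LPS. The 8 were 40% of the list, against 1.34% of all genes called in either direction. The blocked fit called 16 increases (80% of the list, against 6.32% of all genes), at a list median of 1.06 on the log2 scale. The 6 largest called increases were those of Hspa1a (log2 difference 6.25), Dnaja4 (5.00), Hspa1b (3.96), Dnajb1 (3.33), Hsph1 (3.09) and Bag3 (2.36). Hspa1a and Hspa1b are nearly identical and may share signal. Hspd1 and Hspe1, at 0.74 and 0.72, lay between the listed Ahsa1 (0.78, adjusted p = 0.121, and 0.00195 with the block) and Hsp90aa1 (0.69, adjusted p = 0.0552, and 0.000618 with the block). Hsp90aa1 was bright in both groups (4831 ± 27.1 in HS+LPS, 2988 ± 246 in LPS). Hspa8 differed less (0.48, adjusted p = 0.102, and 0.00246 with the block). In LPS against Control 0 of the 20 passed limma's test with or without the block. An unadjusted p under 0.05 was found for 1 (5% of the list, against 4.87% of all genes).

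**Figure D4:**
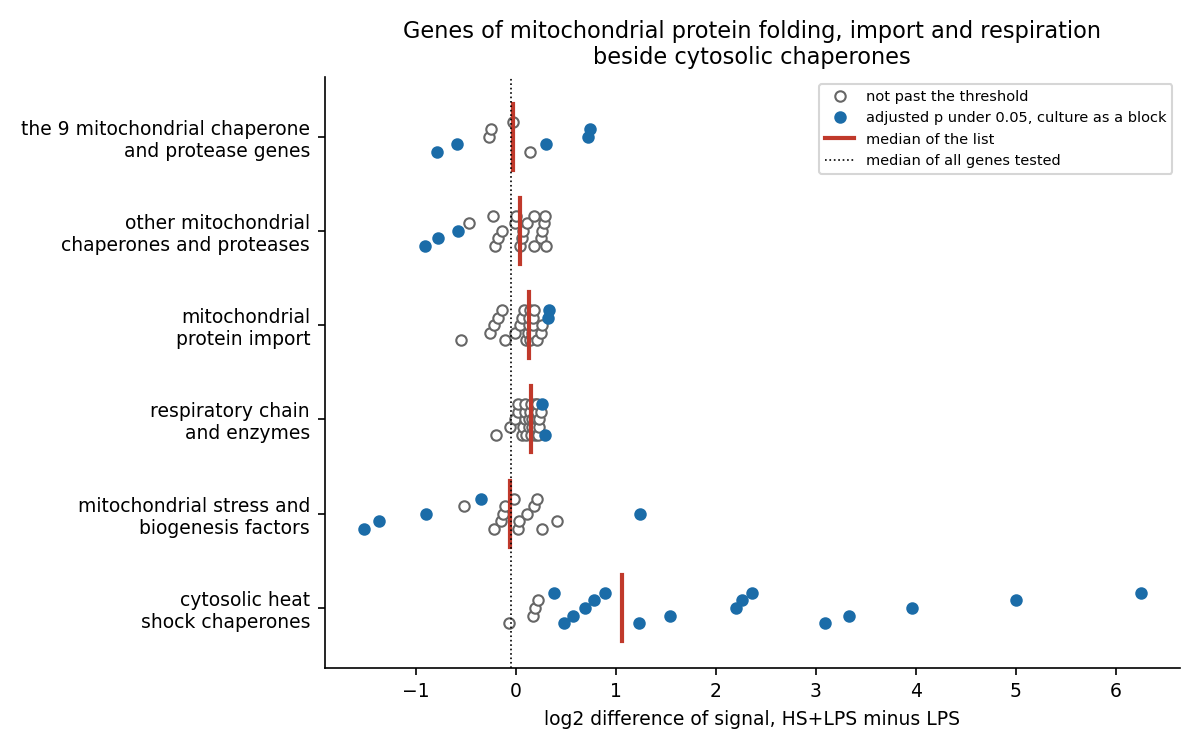
Log2 difference between HS+LPS and LPS for each tested gene of 6 lists, filled where it passed with the culture as a block, with the median of each list (red) and of all genes tested (dotted). The 9 mitochondrial chaperone and protease genes spread from -0.79 to 0.74, while the cytosolic chaperones reach 6.25.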

How the data were processed

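RNA was labelled as biotinylated cRNA and hybridised to 1-colour Affymetrix mouse arrays, per the labels' protocols. The deposited values are linear intensities, 1 per probe set and array; their mean after trimming 2% at each end was 100.001 on every array. The software and its version are not given in the sources used here. Scaling to a common mean hides differences in total mRNA. Gene names came from the platform annotation (34958 probe sets with 1 symbol, 932 with several, 9211 with none); 64 control probe sets were left out. Of the single symbols, 34754 had an Entrez identifier in the RefSeq gene table, and 0 changed. Signals became log2(intensity + 3.37), the added constant being the 25th percentile of the signals; folds on this scale understate changes of dim genes. Probe sets whose mean log2 signal fell below the 40th percentile were dropped. Groups were compared with limma 3.58.1 in R 4.3.3 (lmFit, then eBayes with trend), modelling the 3 groups together at 3 residual degrees of freedom (2 with the culture block), and Benjamini-Hochberg adjustment over all 12918 genes. The fit was tested on simulated data. The pairing comes from the labels, which number the cultures, and the series' design text, which gives each culture its own embryo; their deviations from the group means correlated at 0.622, 0.568 and 0.535. The number of arrays limits the precision. The genes, lists and tests were chosen with earlier results of these data known. All 9 genes are named; from the lists, genes past the threshold were named (at most 6), and those passing only with the block were named after their values were seen. Alternatives covered the block, pseudocount, filter, scaling, probe set rule, variance trend and each array left out.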

Additional observations from a re-analysis of the deposited data

How the results depend on the processing

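Only 2 cultures stand behind each group, and the calls rest on the culture block: without it 0 of the 9 genes passed in any fit that left out an array, and 1 (Hspd1, adjusted p = 0.0359) passed with median centring in HS+LPS against LPS. Dim second probe sets limit Grpel2 and Clpx. With the replicate block, 3 genes rose and 2 fell in HS+LPS against LPS, and 2 and 2 in HS+LPS against Control. Settings combined with the block were chosen after seeing the data. For these combined settings no share over all genes is given, so their counts show only whether the calls held. With the block, these counts were 3 and 2, and 2 and 1, with quantile normalization; 2 and 2 in both comparisons with median centring; 3 and 0, and 2 and 0, with the mean of probe sets; and 3 and 2, and 2 and 2, without probe sets that can detect related transcripts. In blocked fits leaving out 1 array, 2 to 3 rose and 0 to 2 fell in HS+LPS against LPS, and 2 rose and 1 to 3 fell in HS+LPS against Control. The causes were not tested.

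Over all genes, 66 rose and 107 fell in HS+LPS against LPS, 22 and 1 in HS+LPS against Control, and 19 and 0 in LPS against Control. With the block these were 816 and 1627, 658 and 1561, and 266 and 93. Without the intensity trend they were 26 and 58, 13 and 0, and 5 rising in LPS against Control. In HS+LPS against Control they were 49 and 9 with a pseudocount of 16 and 51 and 8 with median centring, and 0 fell with the mean of probe sets or without probe sets that can detect related transcripts. Leaving out 1 array without the block, 7 to 33 rose and 1 to 43 fell in HS+LPS against LPS, 8 to 14 rose and 0 fell in HS+LPS against Control, and 0 to 4 rose in LPS against Control.

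Log2 differences that changed direction were those of genes that passed in no fit of that comparison. In HS+LPS against LPS, Trap1 was 0.0223 with the mean of probe sets and 0.0089 without HS+LPS 2 (block). In HS+LPS against Control, Hspa9 was -0.0354 with quantile normalization, -0.0045 with the mean of probe sets and -0.0018 without Control 1 (block), and Trap1 was 0.0786 with the mean of probe sets, 0.053 without Control 2 and 0.0246 without HS+LPS 2 (both block). Leaving out 1 array without the block, Hspa9 ran from -0.116 to 0.2751, Trap1 from -0.06 to 0.0303 and Lonp1 from -0.273 to 0.0889. In LPS against Control, Hspd1 was 0.0396 with quantile normalization and Clpx 0.2401 with the mean of probe sets. Blocked fits there gave, without Control 1, Hspd1 0.0361, Trap1 -0.0522, Grpel1 0.0133, Grpel2 -0.0114 and Clpp 0.0181; without LPS 1, Trap1 -0.0128, Clpp 0.0935 and Clpx 0.0963; without Control 2, Hspe1 0.0964 and Hspa9 0.0255; and without LPS 2, Hspd1 0.0399. Unblocked ranges over the arrays left out were -0.1186 to 0.1035 for Hspd1, -0.2209 to 0.0591 for Hspe1, -0.2515 to 0.1397 for Hspa9, -0.0295 to 0.0608 for Trap1, -0.193 to 0.0989 for Grpel1, -0.0692 to 0.2623 for Grpel2, -0.0037 to 0.3582 for Lonp1, -0.2909 to 0.1468 for Clpp and -0.3769 to 0.1289 for Clpx. Of 225 gene values per comparison, 3, 15 and 29 changed direction in HS+LPS against LPS, HS+LPS against Control and LPS against Control.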
